A study of Mus musculus with 24 samples.

Results

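Cholesterol and fatty acid synthesis genes were followed in cells sorted from mouse tumours after diphtheria toxin (DT), given here to remove cells that express the intestinal stem cell receptor Lgr5. The set held 35 genes of 36528 in the count tables, taken by name and Entrez identifier. They were 10 enzymes from acetyl-CoA to lanosterol, 9 enzymes from lanosterol to cholesterol, 6 regulators and carriers around the transcription factor SREBP, 8 fatty acid enzymes and 2 exporters driven by the nuclear receptor LXR. All 35 passed the filter on low counts.

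The cells came from small-intestine tumours of the genotype recorded as AKVPL, which saline and DT libraries share. EpCAM, found on the surface of epithelial cells, is in the sample names, and the labels call the sort bulk. Saline or DT was compared at 24, 48 and 96 h, with 4 polyA RNA libraries in each of 6 groups, 24 in all. The labels give no age, do not spell out the letters of the genotype or the construct that makes cells sensitive to the toxin, and do not say that libraries of a group came from separate animals. P-values therefore measure the spread between these libraries, which may be technical.

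Total counts ran from 10.9 to 27.7 (in units of 1e6) per library. Lgr5 lay at 179 to 217 CPM (counts per 1e6 counts after scaling) in saline and 77.0 to 84.8 CPM in DT libraries at 24 h. At 48 h the ranges were 164 to 198 and 95.3 to 171 CPM, and at 96 h 152 to 181 and 122.5 to 134.5 CPM. The highest DT value at 48 h was that of replicate 3, which also stood apart from its group on the first principal component (-2.97 against 18.4 to 30.9), so the counts, the median and the fold changes of the genes named at 48 h are also given without it. By chi-square per df between pairs of libraries, DT replicate 1 at 48 h stood further apart. It differed from replicates 2, 3 and 4 by 22.6, 33.2 and 30.6, and replicate 3 from 2 and 4 by 10.5 and 9.48. Only changed calls are given without replicate 1. Epithelial markers other than Krt20 (3.48 to 12.1 CPM) were abundant throughout, with Epcam at 1239 to 1644 CPM. The summed CPM of 10 epithelial markers was 8814 to 9635 in saline and 8861 to 10550 in DT libraries at 24 h, when 3 of the 10 rose and 3 fell, where 19.9% and 18.9% of all genes tested did, Epcam among those that fell (-0.26 ± 0.06, adjusted p = 0.00141, edgeR). Of 15 leukocyte markers 9 passed the filter. The myeloid genes Lyz2 (40.8 to 273 CPM), Csf1r (12.2 to 40.8 CPM) and Cd68 (11.5 to 21.6 CPM) were present in every library, and the lymphocyte genes Ms4a1 and Cd3g were at 0 in 23 and 22 of the 24. The summed CPM of the leukocyte markers was 239 to 335 in saline and 148 to 408.5 in DT libraries at 24 h, 120.2 to 319 and 123 to 204 at 48 h, and 81.3 to 142.5 and 84.8 to 118.5 at 96 h. Of the 9 that passed, 0 were called at 24 and 96 h, and 8 had a negative fold at 48 h, of which Itgam fell (-0.98 ± 0.31, adjusted p = 0.0436, edgeR). The summed CPM of 12 fibroblast and endothelial markers was 3552 to 4139 in saline and 3140 to 6860 in DT libraries at 24 h. It was 3849 to 7600 and 7330 to 11690 at 48 h, and 3022 to 10090 and 5705 to 10330 at 96 h. All 12 had a higher mean fold in DT at 24 and 48 h, of which 3 and 1 were called, where 19.9% and 4.83% of all genes rose. Between saline at 24 and 96 h, 6 of these 12 markers rose (median log2 fold change 0.88) and 4 of the 9 leukocyte markers fell (median -1.11). Of all 17468 genes tested, 365 rose and 198 fell in this comparison. The part of either marker list in the results was not tested.

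Cells build cholesterol from acetyl-CoA through mevalonate, squalene and lanosterol. The enzymes are switched on together by SREBP2, a membrane protein made from Srebf2. When membranes hold little sterol, Scap escorts SREBP to the Golgi, where it is cut and released to the nucleus; when sterol is plentiful, Insig proteins hold Scap and SREBP in the endoplasmic reticulum. SREBP1, from Srebf1, leans towards fatty acid genes, and LXR, which binds oxysterols, drives export genes such as Abca1 and Abcg1. In the intestine, crypt and tumour cells make sterol and fatty acid for new membranes.

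In saline libraries the set spanned a wide range of levels. Levels were compared between genes only by nRPKM, the authors' size-factor-adjusted reads per kilobase and per 1e6 reads, which accounts for gene length. The stearoyl-CoA desaturase gene Scd2 had the highest level, 142 to 163 nRPKM over the 12 saline libraries. After it came Srebf2 (median 72.8), the citrate lyase Acly (69.9), Hmgcs1 (65.0), Srebf1 (60.0), Msmo1 (56.2) and the fatty acid synthase Fasn (53.0), whose ranges overlapped from one to the next. Scap followed at 32.6 to 34.9 nRPKM, below the lowest Fasn value of 48.6, and from it down to Hsd17b7 (3.02 to 4.69) each gene overlapped its neighbour. Acaca, the acetyl-CoA carboxylase of the cytosol, lay at 2.34 to 2.997 nRPKM and Idi1, the isopentenyl diphosphate isomerase, at 0.649 to 1.06. Only reads that aligned uniquely were counted, which can lower genes with near-identical copies. Fdps shares 26.7% of its exon bases with Gm43738 on the same strand in the GENCODE M21 annotation, so its level is uncertain.

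**Figure D1:**
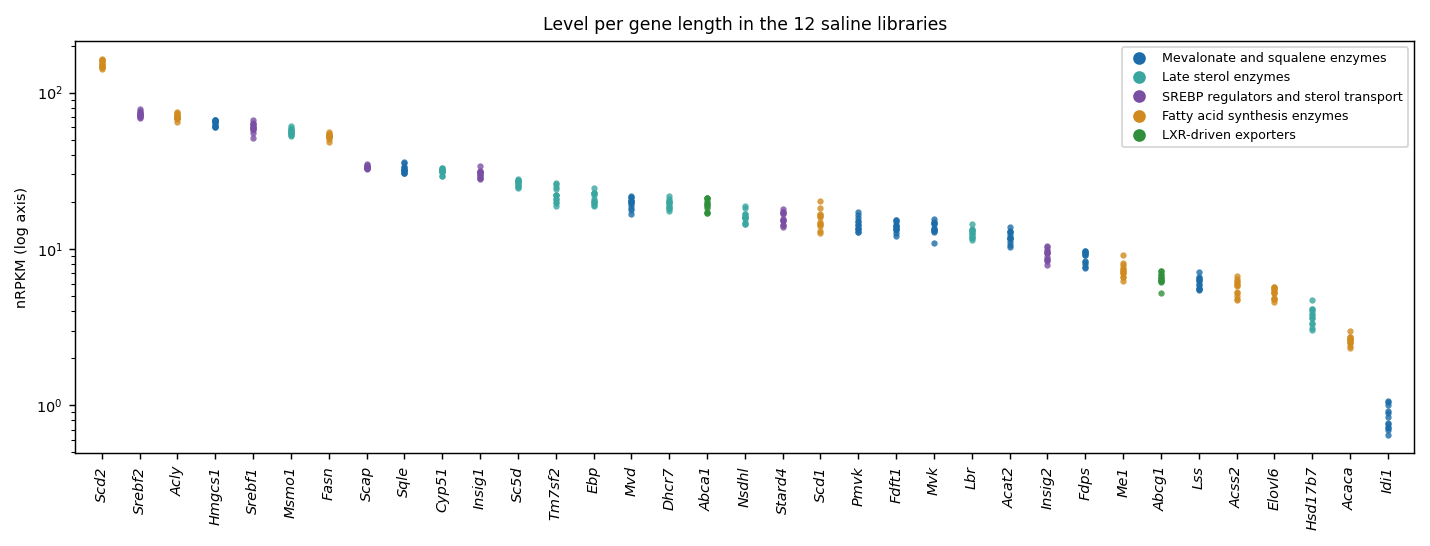
Level per gene length in the 12 saline libraries, 1 point per library, on a log axis of nRPKM, with genes ordered by mean and coloured by role. Scd2 lies above 141 nRPKM in each library and Idi1 at or below 1.06.

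At 24 h the sterol pathway was lower in DT than in saline libraries. Of the 35 genes 22 fell and 2 rose (p under 0.05 after Benjamini-Hochberg adjustment over 17468 genes, quasi-likelihood test of edgeR), where 18.9% of all genes tested fell and 19.9% rose. The median log2 fold change of the 35 genes was -0.27, against -0.0036 for all genes tested. The genes were chosen with earlier results of these data known, which limits what this comparison with all genes can show. By role, 8 of 10 enzymes up to lanosterol, 6 of 9 later sterol enzymes, 5 of 6 SREBP regulators and carriers and 3 of 8 fatty acid enzymes fell. The 2 genes that rose were Lbr, a sterol reductase that is also a receptor for lamin B at the nuclear envelope, and Abcg1, an LXR-driven exporter. These are bulk samples, in which fewer cells of a type and less RNA per cell cannot be told apart.

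The share of all counts that fell on the 35 genes was 0.489%, 0.486%, 0.483% and 0.465% in saline replicates 1 to 4 at 24 h, and 0.411%, 0.423%, 0.415% and 0.393% in the DT replicates. The groups did not overlap. At 48 h the shares were 0.466%, 0.465%, 0.479% and 0.505% in saline and 0.396%, 0.432%, 0.433% and 0.431% in DT, again without overlap. At 96 h they were 0.498%, 0.437%, 0.460% and 0.463% in saline against 0.472%, 0.488%, 0.451% and 0.499% in DT, and the groups overlapped. The sum weights each gene by its counts, of which Scd2 has the most.

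**Figure D2:**
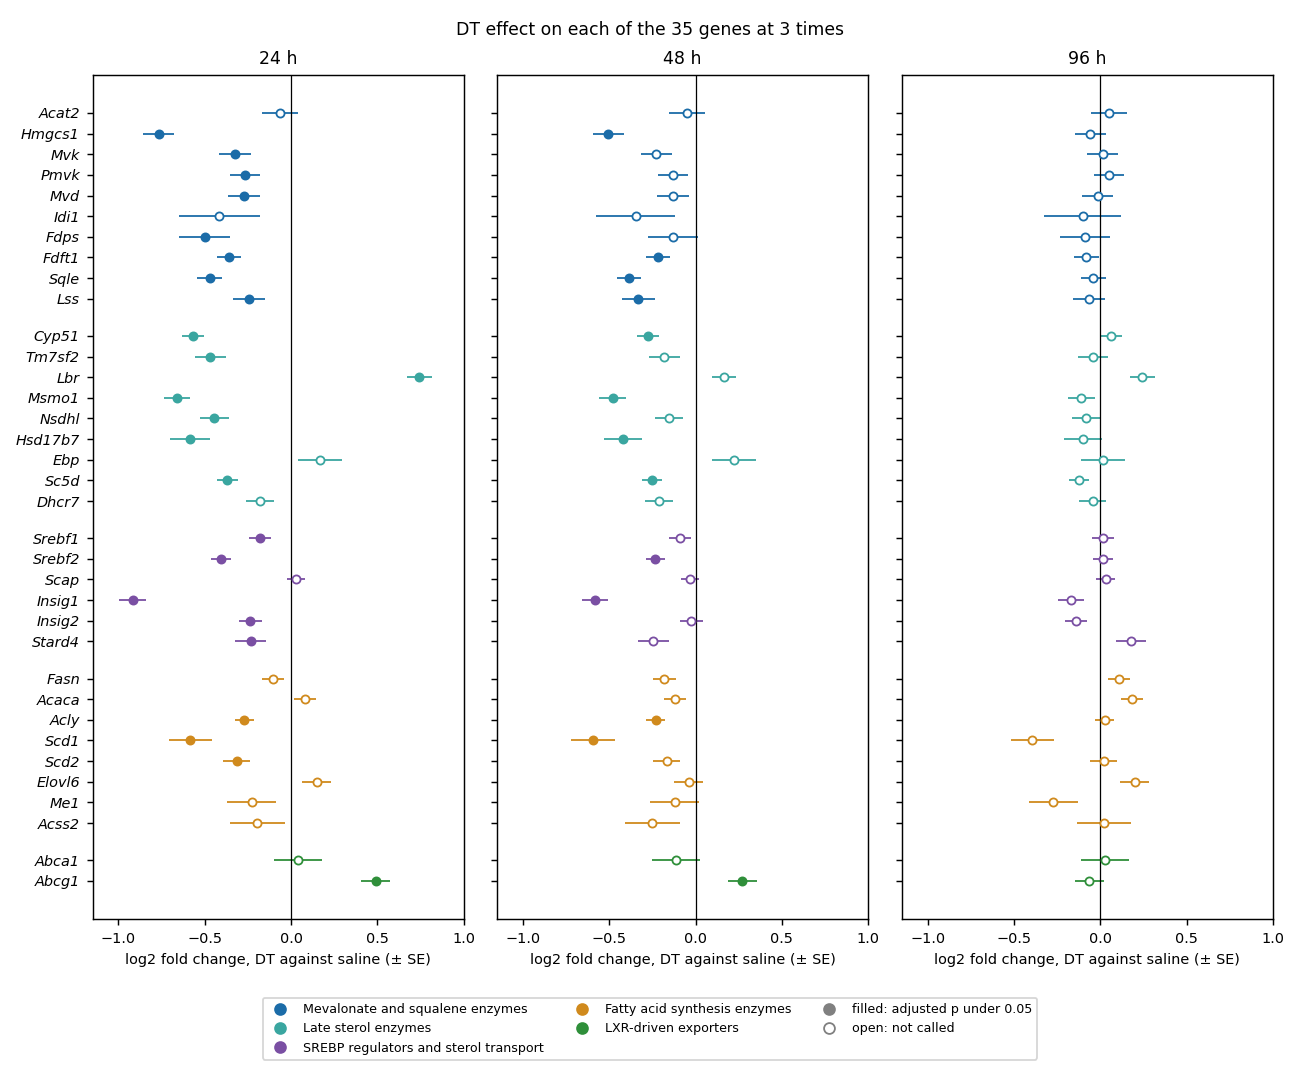
The log2 fold change of DT against saline (x axis, ± SE, n = 4 against 4) for each of the 35 genes at 24, 48 and 96 h, coloured by role, with filled points for adjusted p under 0.05. Most sterol genes lie left of 0 at 24 h, fewer are filled at 48 h, and none is filled at 96 h.

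The promoters of 5 genes are shown because they lead the changes of the sterol genes: Hmgcs1, Insig1, Cyp51 and Msmo1, which fell together, and Lbr, which rose. Hmgcs1 was taken by a rule: a gene of smallest p in its role at 24 h whose window holds the motif TCACNCCAC. The others were chosen after their values were seen. Each sequence is the 250 bases before the annotated start, 5′ to 3′ on the gene's strand, from RefSeq on GRCm38.p6. Capitals mark matches, on either strand, to TCACNCCAC, a sterol regulatory element consensus, and to CCAAT, the box bound by NF-Y, a usual partner of SREBP. The windows are chr13:119690101-119690350 (plus strand) for Hmgcs1, chr5:28071162-28071411 (plus) for Insig1, chr5:4104698-4104947 (minus) for Cyp51, chr8:64733579-64733828 (minus) for Msmo1 and chr1:181842402-181842651 (minus) for Lbr.
Hmgcs1: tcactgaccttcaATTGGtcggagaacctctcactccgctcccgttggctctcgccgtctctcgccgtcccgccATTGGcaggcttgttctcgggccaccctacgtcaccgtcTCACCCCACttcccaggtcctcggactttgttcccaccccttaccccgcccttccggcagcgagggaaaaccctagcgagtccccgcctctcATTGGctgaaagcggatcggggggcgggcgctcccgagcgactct
Insig1: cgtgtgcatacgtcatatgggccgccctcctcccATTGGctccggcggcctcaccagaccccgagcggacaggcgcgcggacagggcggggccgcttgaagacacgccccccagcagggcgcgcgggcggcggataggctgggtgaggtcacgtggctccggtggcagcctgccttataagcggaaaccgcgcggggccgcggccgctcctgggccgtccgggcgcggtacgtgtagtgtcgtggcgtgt
Cyp51: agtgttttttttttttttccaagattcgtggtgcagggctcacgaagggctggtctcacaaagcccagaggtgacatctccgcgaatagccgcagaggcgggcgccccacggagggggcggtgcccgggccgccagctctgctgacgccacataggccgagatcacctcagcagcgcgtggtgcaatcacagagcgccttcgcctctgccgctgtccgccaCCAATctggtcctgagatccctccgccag
Msmo1: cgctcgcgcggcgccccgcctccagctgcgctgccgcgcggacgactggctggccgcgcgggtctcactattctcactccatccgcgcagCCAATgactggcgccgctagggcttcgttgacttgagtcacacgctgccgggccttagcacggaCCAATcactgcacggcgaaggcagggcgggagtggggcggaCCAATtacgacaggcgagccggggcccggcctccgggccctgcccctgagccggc
Lbr: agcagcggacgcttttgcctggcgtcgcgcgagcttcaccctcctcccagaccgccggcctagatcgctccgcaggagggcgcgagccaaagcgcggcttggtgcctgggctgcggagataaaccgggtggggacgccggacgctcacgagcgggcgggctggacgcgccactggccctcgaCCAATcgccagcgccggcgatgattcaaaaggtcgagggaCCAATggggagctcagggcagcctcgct

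TCACNCCAC occurred once in these windows, 137 bases before the start of Hmgcs1, which the rule took for holding it. In the Hmgcs1 window CCAAT occurred 237, 176 and 45 bases before the start. Cyp51 and Insig1 held 1 CCAAT box each, 29 and 216 bases before the start, Lbr held 2 and Msmo1 held 3. Of the 35 genes 28 had an entry in the promoter table, with 37 windows in all; Fdps, Fdft1, Sqle, Stard4, Scd1, Scd2 and Abcg1 had none. TCACNCCAC was in 1 of the 37 windows (2.70%) and in 1.05% of all 32851 windows of the same length. CCAAT was in 23 (62.2%) against 33.8% of all windows, and the GC box CCGCCC in 27 (73.0%) against 32.7%. The matches are a description of letters, with no test and no measure of binding.

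Among the enzymes from acetyl-CoA to lanosterol, Hmgcs1, which makes HMG-CoA, and Sqle, the squalene epoxidase, had the smallest p-values at 24 h. Hmgcs1 read 274, 276, 271 and 260.1 CPM in saline replicates 1 to 4 and 149, 163, 166 and 157 CPM in the DT replicates (log2 fold change -0.77 ± 0.09 SE, adjusted p = 4.73e-07, edgeR). Every DT library lay below every saline library. Sqle read 98.2, 94.2, 104 and 95.3 CPM in saline and 70.1, 70.1, 81.9 and 59.9 CPM in DT (-0.47 ± 0.07, adjusted p = 1.55e-05, edgeR), with replicate 3 the highest and replicate 4 the lowest of the DT libraries.

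Of the other 8 enzymes of this stretch 6 fell. The farnesyl diphosphate synthase Fdps fell by 0.50 ± 0.15 on the log2 scale, the squalene synthase Fdft1 by 0.36 ± 0.07 and the mevalonate kinase Mvk by 0.33 ± 0.09. The decarboxylase Mvd, the kinase Pmvk and the lanosterol synthase Lss fell by 0.27 ± 0.09, 0.27 ± 0.09 and 0.24 ± 0.09. Idi1 (-0.41 ± 0.23, adjusted p = 0.168) and the acetoacetyl-CoA thiolase Acat2 (-0.06 ± 0.11, adjusted p = 0.669) were not called by edgeR. Of the 10 genes, 8 had all 4 DT libraries below all 4 saline libraries, which 16.2% of all genes tested had. Fdft1 shares 18.3% of its exon bases with Ctsb on the opposite strand and Hmgcs1 12.1% with Gm48342, in GENCODE M21, and use of strand in counting is not given in the sources used here.

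The calls of Lss, Pmvk and Mvd at 24 h rested on single libraries. Leaving out saline replicate 1, saline replicate 3, DT replicate 1 or DT replicate 4 ended the call of Lss (edgeR adjusted p = 0.0551 to 0.146), as did analysis with median-of-ratios scaling (0.0501), limma (0.0706) or only the libraries of 24 h (0.0612). Pmvk was not called without saline replicate 1 (0.0710) or DT replicate 2 (0.0503), and Mvd without saline replicate 1 (0.0523) or DT replicate 4 (0.0759). With no filter on low counts none of the 3 was called (0.0882 to 0.135).

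Later sterol enzymes remove methyl groups from lanosterol and move or reduce its double bonds. Lbr and Cyp51, the lanosterol demethylase, had the smallest p-values of the 9 at 24 h. Cyp51 read 162, 154, 154 and 161 CPM in saline and 102, 107, 118 and 96.4 CPM in DT (-0.57 ± 0.06, adjusted p = 2.87e-07, edgeR). Msmo1, the methylsterol monooxygenase, read 114, 119, 113 and 113 CPM in saline and 70.6, 73.8, 84.2 and 61.2 CPM in DT (-0.66 ± 0.08, adjusted p = 5.73e-07, edgeR). Neither gene's groups overlapped, and replicate 3 was the highest and replicate 4 the lowest DT library for both, as for Sqle.

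Lbr went the other way. It read 48.2, 50.05, 53.0 and 50.8 CPM in saline and 82.2, 81.4, 96.6 and 77.8 CPM in DT (0.74 ± 0.07, adjusted p = 3.5e-08, edgeR), with every DT library above every saline library. Tm7sf2, which catalyses the same reduction of the C14 double bond as Lbr, fell by 0.47 ± 0.09 (37.0, 43.5, 37.1 and 41.7 CPM in saline, 26.4, 28.1, 29.9 and 30.5 CPM in DT, adjusted p = 0.000192, edgeR). This pair of reductases thus changed in opposite directions in the same libraries. Lbr shares 9.24% of its exon bases with Dnah14 on the opposite strand, and Tm7sf2 12.1% with Vps51 on the same strand, in GENCODE M21.

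Of the rest, the reductase Hsd17b7 fell by 0.59 ± 0.12, the dehydrogenase Nsdhl by 0.44 ± 0.08 and the desaturase Sc5d by 0.37 ± 0.06. The isomerase Ebp (0.17 ± 0.13, adjusted p = 0.315) and Dhcr7, which makes cholesterol in the last step (-0.18 ± 0.08, adjusted p = 0.0805), were not called by edgeR. Dhcr7 was called by limma (0.0450), and by edgeR when saline replicate 3 (-0.25, adjusted p = 0.0227) or DT replicate 3 (-0.25, 0.0169) was dropped.

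**Figure D3:**
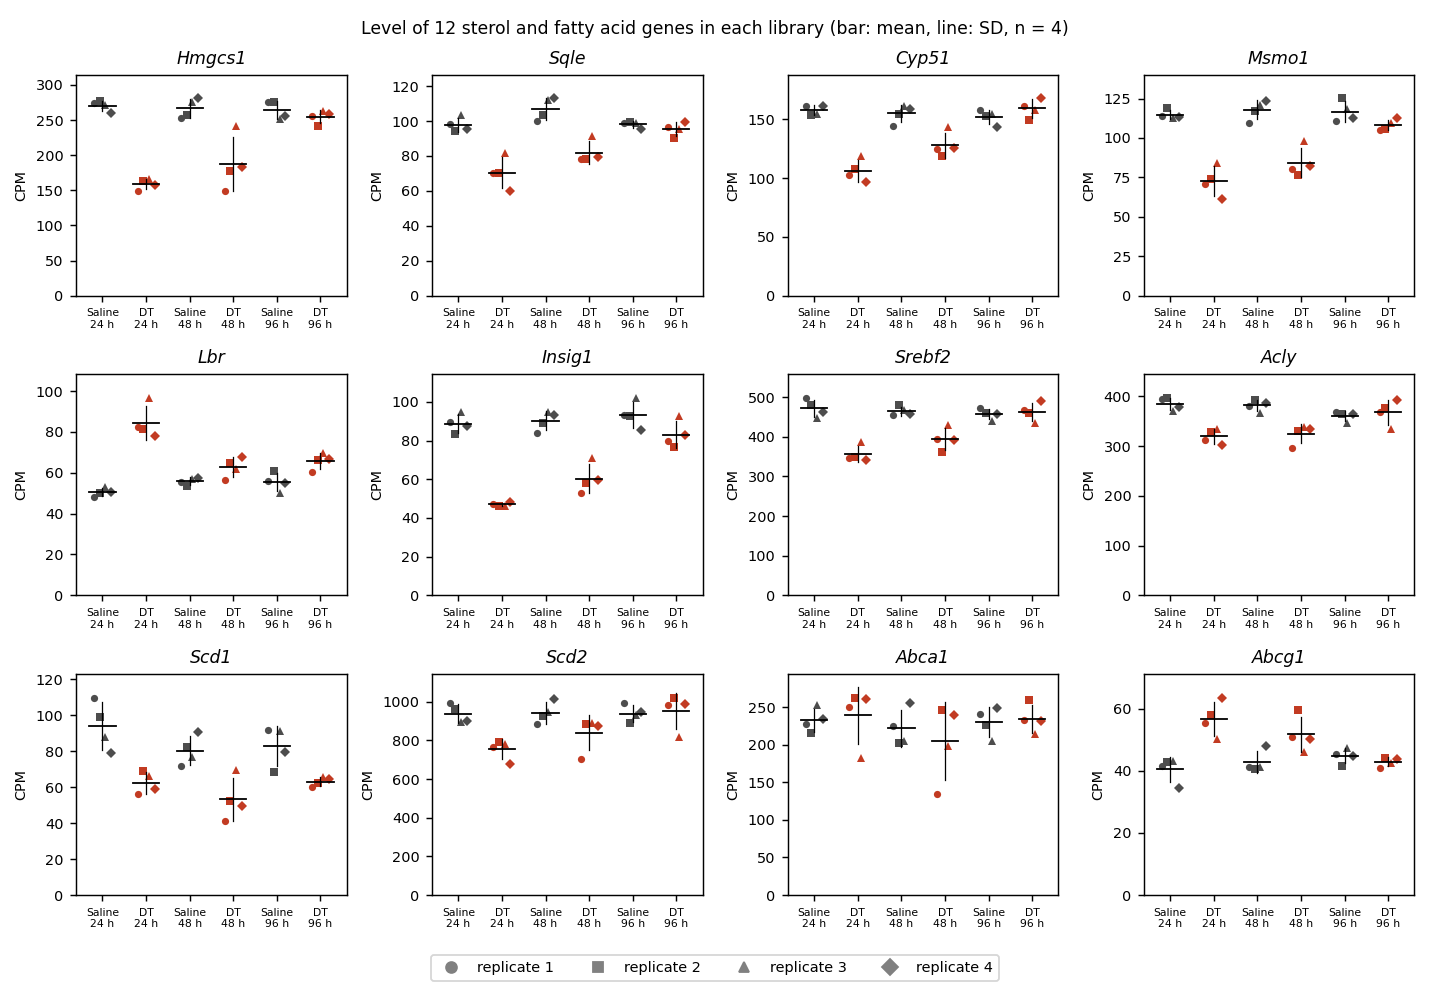
CPM in each library (y axis from 0) of 12 genes by group (x axis), with a marker per replicate number, a bar for the mean and a line for the SD (n = 4); saline is grey and DT red. Hmgcs1, Sqle, Cyp51, Msmo1, Insig1 and Srebf2 lie lower in DT than in saline at 24 and 48 h with no overlap, Lbr and Abcg1 lie higher at 24 h, and at 96 h all but Scd1 overlap or nearly meet.

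Of the 6 regulators and carriers 5 fell, and Insig1 had the largest fall of the 35 genes. Insig1, which retains Scap and is itself a target of SREBP, read 89.5, 83.5, 95.1 and 87.3 CPM in saline and 47.0, 46.5, 46.4 and 48.3 CPM in DT at 24 h (-0.92 ± 0.08, adjusted p = 6.3e-09, edgeR). The 4 DT libraries spanned 46.4 to 48.3 CPM, and none came near the saline range. Srebf2 read 498, 480.4, 448 and 462 CPM in saline and 345, 350.1, 388 and 342 CPM in DT (-0.41 ± 0.06, adjusted p = 5.32e-06, edgeR), also without overlap.

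The paralogs of both genes fell by less. Insig2, which has the same retention role, fell by 0.24 ± 0.07 (adjusted p = 0.00638, edgeR), from 42.3 to 46.5 CPM in saline to 35.6 to 39.5 CPM in DT. Srebf1 fell by 0.18 ± 0.07 (adjusted p = 0.0331, edgeR), with overlapping ranges of 292 to 337 and 271 to 296 CPM. Whether the members of a pair differed from each other was not tested. The sterol carrier Stard4 fell by 0.23 ± 0.09 (adjusted p = 0.0415), and Scap was not called (0.03 ± 0.05, adjusted p = 0.722). Leaving out saline replicate 1 or 3 or DT replicate 1, 2 or 3 ended the edgeR call of Srebf1 (adjusted p = 0.0521 to 0.0785), and leaving out saline replicate 1 or 3 or DT replicate 2 or 3 ended that of Stard4 (0.0757 to 0.107). Srebf1 was also not called by limma (0.0559) or with only the libraries of 24 h (0.0572), and with no filter on low counts Srebf1 (0.199), Stard4 (0.113) and Insig2 (0.0588) were not called.

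Fatty acid enzymes were split at 24 h. Acly, which makes cytosolic acetyl-CoA from citrate, read 394, 397, 371 and 379 CPM in saline and 311, 328, 334 and 303 CPM in DT (-0.27 ± 0.05, adjusted p = 0.000373, edgeR). The desaturase Scd1 read 109.7, 99.0, 87.7 and 79.1 CPM in saline and 56.2, 69.1, 66.0 and 58.7 CPM in DT (-0.58 ± 0.13, adjusted p = 0.000781, edgeR). In both genes, and in Scd2 (896 to 993 against 679.7 to 790.1 CPM, -0.32 ± 0.08, adjusted p = 0.00247), the groups did not overlap.

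The enzymes that build and lengthen the chain were not called. Fasn had a log2 fold change of -0.10 ± 0.07 (adjusted p = 0.222, edgeR), Acaca of 0.08 ± 0.06 (0.353) and the elongase Elovl6 of 0.15 ± 0.08 (0.170). Neither was Me1, the malic enzyme that supplies NADPH (-0.23 ± 0.14, 0.216), nor the acetyl-CoA synthetase Acss2 (-0.20 ± 0.16, 0.351). Me1 was called without DT replicate 3 (-0.40, adjusted p = 0.0212) and Elovl6 without DT replicate 4 (0.23, 0.0250).

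Of the 2 exporters 1 was called. Abcg1, which passes cholesterol to lipoprotein particles, read 41.5, 42.8, 43.2 and 34.4 CPM in saline and 55.6, 57.9, 50.3 and 63.6 CPM in DT at 24 h (0.49 ± 0.08, adjusted p = 6.25e-05, edgeR). All DT libraries lay above all saline libraries. Abca1, which loads cholesterol onto apolipoprotein, read 228, 216, 253 and 234 CPM in saline and 251, 263, 183 and 261 CPM in DT (0.04 ± 0.14, adjusted p = 0.848), with replicate 3 the lowest of the 8 libraries. Without that replicate the log2 fold change of Abca1 was 0.16 (adjusted p = 0.41, edgeR), and the difference between the exporters was not tested.

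Counted over the 35 genes, 21 had all DT libraries below all saline libraries at 24 h and 2 had them above, against 16.2% and 18.1% of all genes tested. At 48 h these counts were 13 and 0, against 8.65% and 7.16%, and at 96 h 2 (Sc5d and Scd1) and 1 (Acaca), against 6.70% and 4.91%.

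**Figure D4:**
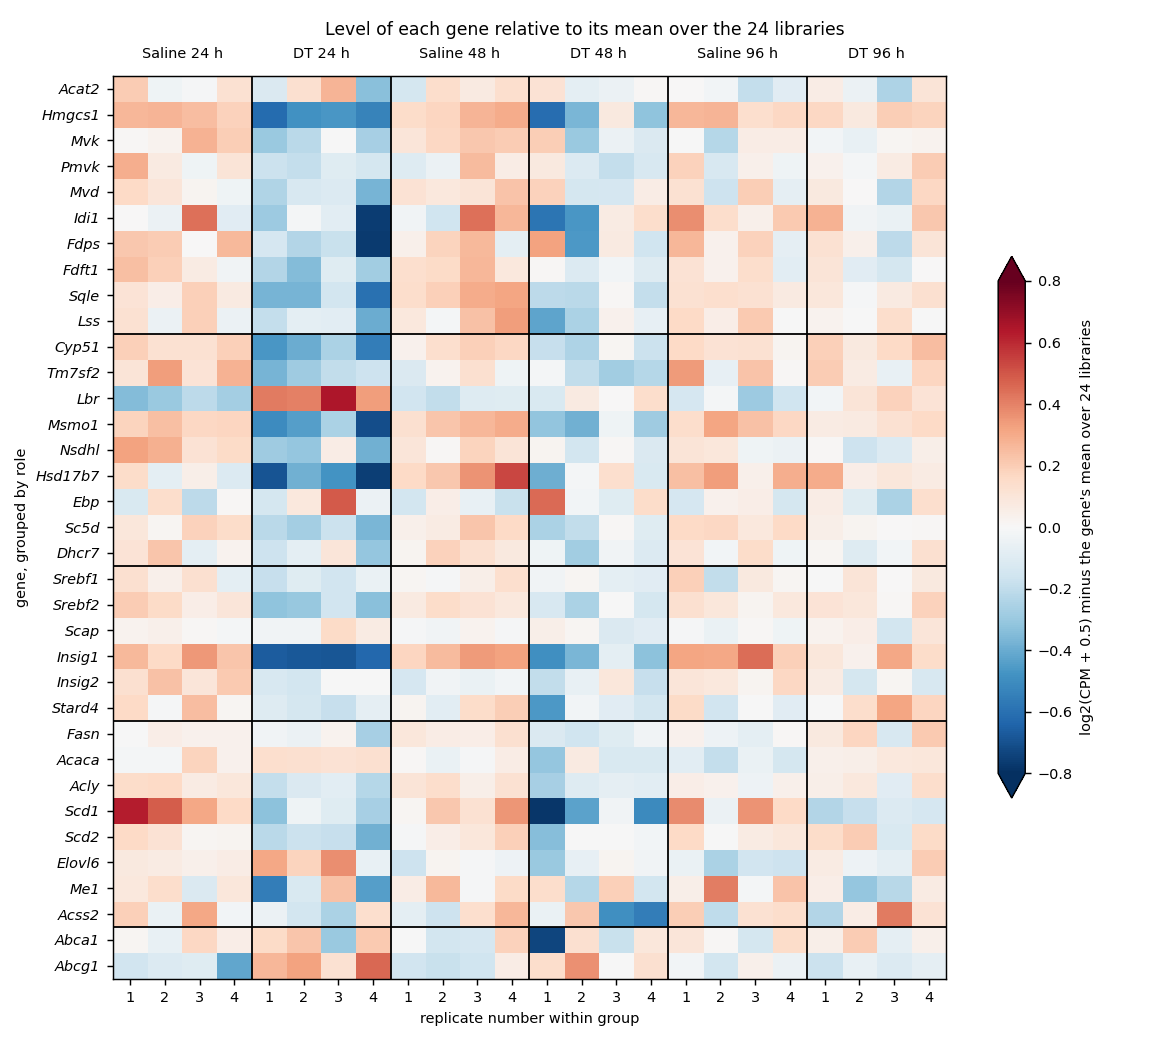
Each gene's log2(CPM + 0.5) minus its mean over the 24 libraries (colour, clipped at 0.8 in either direction), with libraries in columns by group and replicate and genes in rows by role. The DT columns at 24 h are blue for most sterol genes, with Lbr and Abcg1 red, and DT replicate 3 at 48 h is paler than the other 3.

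At 48 h fewer of the genes were called, and the median change was smaller. Of the 35 genes 12 fell and 1 rose (edgeR), where 6.48% of all genes fell and 4.83% rose, and the median log2 fold change was -0.18, against -0.0019 over all genes. All 12 had also fallen at 24 h, and Abcg1 rose at both times. The 12 were Hmgcs1, Fdft1, Sqle, Lss, Cyp51, Msmo1, Hsd17b7, Sc5d, Srebf2, Insig1, Acly and Scd1. Of the 8 fatty acid enzymes 2 were called and of the 6 regulators 2. Fasn, at 617, 605, 601 and 635 CPM in saline and 536, 519.9, 542 and 569 CPM in DT, did not overlap and was not called by edgeR (-0.18 ± 0.07, adjusted p = 0.0752), but was by DESeq2 (0.0496) and limma (0.0357). Beyond the edgeR calls limma also called Mvk (0.00184), Dhcr7 (0.0134), Nsdhl (0.0295), Acss2 (0.0319), Tm7sf2 (0.035) and Lbr.

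Insig1 read 84.2, 89.2, 94.6 and 93.5 CPM in saline and 53.1, 58.0, 71.0 and 59.4 CPM in DT at 48 h (-0.58 ± 0.08, adjusted p = 6.34e-05, edgeR). Hmgcs1 read 253, 257, 276 and 281 CPM in saline and 149.5, 178, 241 and 182 CPM in DT (-0.51 ± 0.09, adjusted p = 0.000759, edgeR). In both genes replicate 3 was the DT library nearest to saline, still below every saline library.

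Msmo1 at 48 h read 109.8, 117, 121 and 124 CPM in saline and 80.5, 76.7, 98.1 and 82.3 CPM in DT (-0.48 ± 0.08, adjusted p = 0.000375, edgeR). Sqle read 100.1, 104, 112 and 113 CPM against 78.5, 78.3, 91.5 and 79.6 CPM (-0.39 ± 0.07, adjusted p = 0.0012, edgeR). Cyp51 read 145, 155, 161 and 159 CPM against 124, 119, 143 and 126 CPM (-0.27 ± 0.06, adjusted p = 0.00624, edgeR). In each of these 3 genes, too, DT replicate 3 was the highest DT library and lay below the saline range.

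Srebf2 read 454, 479, 467 and 458 CPM in saline and 395, 362, 431 and 392 CPM in DT at 48 h (-0.23 ± 0.06, adjusted p = 0.00897, edgeR). Acly read 381, 392, 367 and 387 CPM against 296, 331, 338 and 335 CPM (-0.23 ± 0.05, adjusted p = 0.00739, edgeR). The desaturase Scd1 read 71.5, 82.3, 76.9 and 90.4 CPM against 41.1, 52.5, 69.3 and 49.6 CPM (-0.60 ± 0.13, adjusted p = 0.00366, edgeR). Scd1 thus fell at both 24 and 48 h. Its paralog Scd2 also had a negative fold at 48 h but was not called (-0.17 ± 0.08, adjusted p = 0.174, edgeR). Whether the paralogs differed was not tested.

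Lbr was not called at 48 h by edgeR (0.17 ± 0.07, adjusted p = 0.133), though limma called it (0.0027). It read 55.4, 53.5, 57.2 and 57.6 CPM in saline and 56.4, 64.7, 61.7 and 67.8 CPM in DT, with replicate 1 inside the saline range. Abcg1 read 41.4, 40.7, 41.2 and 48.1 CPM against 51.0, 59.5, 46.1 and 50.4 CPM (0.27 ± 0.08, adjusted p = 0.0364, edgeR), with overlapping groups. Abca1 read 225, 203, 205 and 256 CPM against 135, 247, 199 and 240.3 CPM and was not called (-0.11 ± 0.14, adjusted p = 0.647).

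Without DT replicate 3, 11 genes fell and 1 rose at 48 h, where 1373 and 1369 of all 17738 genes tested did. Fdft1 was the gene no longer called (edgeR adjusted p = 0.0522). The log2 fold change was then -0.65 for Insig1, -0.63 for Hmgcs1, -0.55 for Msmo1, -0.43 for Sqle, -0.32 for Cyp51, -0.26 for Srebf2, -0.24 for Acly, -0.74 for Scd1 and 0.34 for Abcg1. For genes not called it was -0.18 for Scd2, -0.17 for Fasn, 0.19 for Lbr and -0.08 for Abca1, and the median of the 35 genes was -0.18. Other libraries also decided calls near the threshold. Leaving out any single library of 48 h except DT replicate 1 ended the call of Fdft1 (edgeR adjusted p = 0.0522 to 0.119), and that of Lss ended without saline replicates 3, 4 or DT replicates 1, 2, each alone (0.0591 to 0.116). Saline replicate 4 or DT replicate 1 ended that of Hsd17b7 (0.0930 and 0.0698), DT replicate 2 that of Srebf2 (0.0633), and saline replicate 4 that of Acly (0.0508). The call of Abcg1 ended when any library but saline replicate 4 or DT replicate 3 was dropped (0.0541 to 0.107). Mvk was called without DT replicate 1 (-0.32, adjusted p = 0.0201). With only the 8 libraries of 48 h fitted, 5 genes fell and 0 rose, where 574 and 371 of all 16591 genes tested did. The calls that ended there were those of Cyp51 (edgeR adjusted p = 0.0576), Acly (0.0735), Fdft1 (0.0736), Srebf2 (0.0757), Hsd17b7 (0.0839), Sc5d (0.0851), Abcg1 (0.103) and Lss (0.115).

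At 96 h none of the 35 genes was called by edgeR, where 1.01% of all genes rose and 3.02% fell. The median log2 fold change was -0.016, against -0.0059 over all genes, and 7 genes had an unadjusted p under 0.05. DESeq2 called 1 gene, Lbr, and limma called 3, Lbr, Acaca and Scd1. Hmgcs1 read 275, 276, 251 and 256 CPM in saline and 256, 242, 262 and 259 CPM in DT (-0.06 ± 0.09, adjusted p = 0.856). Cyp51 read 158, 153, 154 and 144 CPM against 162, 149, 158 and 168 CPM (0.06 ± 0.06, adjusted p = 0.735, edgeR). The DT libraries of both genes lay within or beside the saline range.

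Insig1 read 93.1, 92.9, 102 and 85.4 CPM in saline and 79.7, 76.6, 93.0 and 83.0 CPM in DT at 96 h (-0.17 ± 0.07, adjusted p = 0.256, edgeR). Srebf2 read 472, 461, 439 and 458 CPM against 467, 459, 434 and 491 CPM (0.02 ± 0.06, adjusted p = 0.946). Msmo1 read 111, 125, 118 and 113 CPM against 105, 106, 109 and 112 CPM (-0.11 ± 0.08, adjusted p = 0.567). All 3 genes' groups overlapped, with 3 of 4 DT libraries of Insig1 and Msmo1 below the lowest saline library and those of Srebf2 on both sides of the saline range.

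Sqle (95.3 to 99.7 CPM in saline, 90.3 to 99.4 CPM in DT), Acly (346 to 369 and 334 to 392 CPM), Abca1 (205 to 249.8 and 214 to 260.0 CPM) and Abcg1 (41.6 to 47.5 and 40.9 to 44.2 CPM) overlapped at 96 h. Scd1 did not, at 91.9, 68.3, 91.0 and 79.2 CPM in saline and 60.0, 62.2, 65.6 and 64.4 CPM in DT (-0.39 ± 0.13, adjusted p = 0.0871, edgeR). It was called without saline replicate 2 (-0.47, adjusted p = 0.0379), by limma (0.0253) and with only the libraries of 96 h (0.0408).

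Lbr read 56.0, 60.8, 50.1 and 55.0 CPM in saline and 60.6, 66.1, 69.9 and 66.5 CPM in DT at 96 h (0.24 ± 0.07, adjusted p = 0.0517, edgeR), just short of a call. It was called with median-of-ratios scaling (adjusted p = 0.0469), with the authors' size factors (0.0475), by DESeq2 (0.0264), by limma (0.00621) and without saline replicate 2 (0.0285) or DT replicate 1 (0.0416). Acaca read 26.6 to 29.2 CPM in saline and 31.3 to 32.4 CPM in DT (0.18 ± 0.06, adjusted p = 0.122), without overlap.

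**Figure D5:**
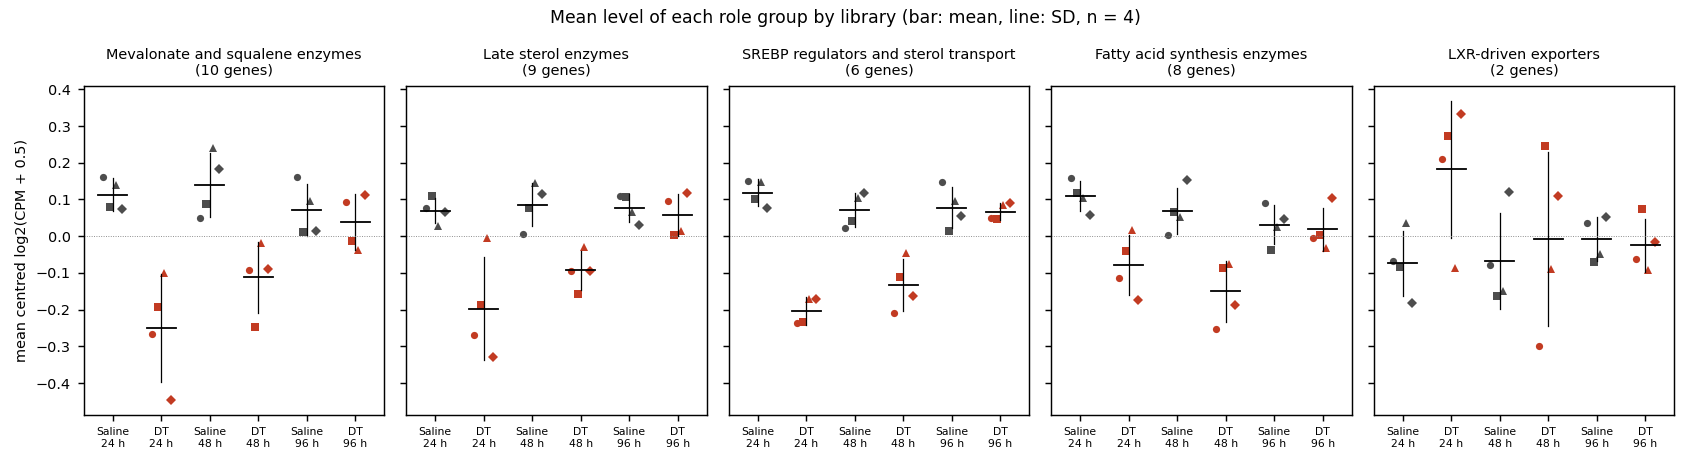
Mean over the genes of each role of log2(CPM + 0.5), each gene centred on its mean over the 24 libraries (y axis), by group (x axis), with a marker per replicate number, the mean as a bar and the SD as a line (n = 4 libraries). In DT libraries the sterol, regulator and fatty acid roles lie below saline without overlap at 24 and 48 h and overlap it at 96 h, while the groups of the exporters, 2 genes, overlap at each time.

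Whether the DT effect itself differed between times was tested by interaction contrasts. Between 24 and 96 h the effect was shifted upwards for 12 of the 35 genes and downwards for 2 (edgeR), against 4.08% and 7.82% of all genes. The 12 were Insig1 (0.75 ± 0.11, adjusted p = 0.000138), Hmgcs1 (0.71 ± 0.12, 0.000745), Cyp51 (0.63 ± 0.09, 0.000124), Msmo1 (0.55 ± 0.11, 0.00196), Hsd17b7, Sqle (0.43 ± 0.10, 0.00694), Tm7sf2, Srebf2 (0.42 ± 0.08, 0.00140), Stard4, Nsdhl, Scd2 and Acly (0.30 ± 0.08, 0.0140). The 2 shifted downwards were Abcg1 (-0.55 ± 0.12, adjusted p = 0.00360) and Lbr (-0.50 ± 0.10, adjusted p = 0.00213), which had risen at 24 h. So each of the 14 had an effect at 96 h nearer to 0, or past it, than at 24 h. Scd1 was not among them (0.19 ± 0.18, adjusted p = 0.539).

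These counts of interaction calls moved with single libraries. Without saline replicate 4 of 96 h, 9 genes were called. That library also ended each of the calls of Tm7sf2 (0.0556), Nsdhl (0.0803), Hsd17b7 (0.0611), Stard4 (0.0663) and Scd2 (0.0708) by edgeR. Of the other libraries, Tm7sf2 was lost without DT replicate 2 of 24 h, saline replicate 2 or DT replicate 1 of 96 h (0.0521 to 0.065). Nsdhl was lost without saline replicate 1 or DT replicate 2 or 4 of 24 h, saline replicate 2 or DT replicate 1 or 4 of 96 h (0.0506 to 0.088). Stard4 was lost without saline replicate 3 or DT replicate 2 or 3 of 24 h, saline replicate 2 or DT replicate 2 of 96 h (0.0503 to 0.0738). Hsd17b7 was lost when dropping, of 24 h, saline replicates 1 and 3 and DT replicates 1, 3 and 4, each alone, or, of 96 h, saline replicates 1 and 3 and DT replicates 1 and 2 (0.059 to 0.114). Scd2 was lost when dropping, of 24 h, saline replicates 1 and 2 and DT replicates 2, 3 and 4, each alone, or, of 96 h, saline replicates 2 and 3 and DT replicates 1, 2 and 4 (0.0519 to 0.107). The other 9 genes were called without each single library. Acly, however, was not called with no filter on low counts (0.0984) or with the replicate block (0.0565).

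Between 24 and 48 h only Lbr had a different effect (-0.58 ± 0.10, adjusted p = 0.00192, edgeR), where 2.34% of all genes were shifted downwards; DESeq2 added Cyp51 and limma added Cyp51 and Insig1. Between 48 and 96 h none of the 35 genes was called by edgeR, and 0.00572% of all genes were, with 11 of the 35 at an unadjusted p under 0.05. DESeq2 called Insig1 there and limma Cyp51 and Hmgcs1. The contrasts of 48 with 24 h and of 96 with 24 h share the libraries of 24 h.

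Saline libraries were also compared between times. None of the 35 genes differed between saline at 48 and 24 h or between saline at 96 and 24 h by edgeR, where 0.355% and 3.22% of all genes did. An unadjusted p under 0.05 was found for 3 genes in each contrast. DESeq2 called 0 genes in both, and limma called Insig2 in the first and 0 in the second.

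Other genes of sterol metabolism, outside the 35, were called in both directions at 24 h. Of 18, 4 rose and 5 fell (edgeR; median log2 fold change -0.038), near the 19.9% and 18.9% of all genes. Those with the smallest p-values were Pdss1, which starts the side chain of coenzyme Q (0.97 ± 0.11, adjusted p = 4.29e-07), the lysosomal cholesterol carrier Npc1 (-0.45 ± 0.06, 6.61e-06), Erlin2 (-0.36 ± 0.06, 2.28e-05) and Erlin1 (0.31 ± 0.06, 0.00024). Erlin1 and Erlin2 are partner proteins of the endoplasmic reticulum that take part in turnover of sterol regulators, and they changed in opposite directions. At 48 h Pdss1 rose (0.62 ± 0.11, adjusted p = 0.000948) and Erlin2 fell (-0.22 ± 0.06, 0.0120), where 4.83% of all genes rose and 6.48% fell, and at 96 h none of the 18 was called.

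Of 18 other lipogenic genes 17 passed the filter, of which 2 rose and 2 fell at 24 h (edgeR; median -0.061), where 19.9% and 18.9% of all genes did. The fatty acid desaturase Fads2 (-0.39 ± 0.07, adjusted p = 0.000182) and the phosphatidate phosphatase Lpin1 (-0.53 ± 0.13, 0.00252) fell, and the acyl-CoA synthetase Acsl5 (0.43 ± 0.09, 0.000748) and Pnpla3 (0.57 ± 0.15, 0.00341) rose. Fads2 and Lpin1 were also lower at 48 h (-0.30 ± 0.07, adjusted p = 0.0101, and -0.44 ± 0.13, 0.0300), where 6.48% of all genes fell. At 96 h 1 gene was called, Mid1ip1, a partner of acetyl-CoA carboxylase (-0.27 ± 0.07, adjusted p = 0.0362), where 3.02% of all genes fell.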

How the data were processed

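RNA of sorted tumour cells was sequenced in 24 libraries. Per the file headers, the deposited count of a gene gives its uniquely aligned reads, and the deposited RPKM was adjusted by the authors' size factors (nRPKM). GSNAP and GRCm38 are listed in the submitters' processing notes. The aligner's version, the annotation and strand use were not given in the sources used here. Identifiers were matched to symbols for 31049 of 36528 genes (85%). Counts were fitted in edgeR 4.0.16 (R 4.3.3; filterByExpr, TMM, robust quasi-likelihood, 1 mean per group over all 24 libraries, 18 residual df), two-sided, with Benjamini-Hochberg adjustment over 17468 genes and a threshold of 0.05; SE is the log2 fold change over the root of F. The script was tested on simulated data. DESeq2 1.42.0, limma 3.58.1, other scalings and filters, a replicate block, single times and leaving out each library were alternatives. Library values were given for the 2 genes of smallest p per role at 24 h, genes going against their role, and up to 6 genes with a changed effect; Tm7sf2 was added after its values were seen. In other lists up to 4 genes of smallest p were named. The members and lists were chosen with earlier results of these data known. No 2 libraries agreed within sampling noise (smallest chi-square per df 4.24).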

Additional observations from a re-analysis of the deposited data

Results flagged for a closer look

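Of 210 groups of 4 libraries (35 genes in 6 groups), 9 held a library far from the other 3, where chance gives about 1 in 20, so their number is near what chance gives. They were Idi1 in saline replicate 3 at 24 h (3.453 CPM), Srebf2 (387.8 CPM) and Abca1 (183.1 CPM) in DT replicate 3 at 24 h, Abcg1 in saline replicate 4 at 48 h (48.12 CPM), and Sqle in DT replicate 3 at 48 h (91.53 CPM). Acly (295.9 CPM) and Scd2 (702.9 CPM) in DT replicate 1 at 48 h, Sc5d in saline replicate 3 at 96 h (68.91 CPM) and Hsd17b7 in DT replicate 1 at 96 h (20.84 CPM) made up the rest.

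The DT effect differed between times by an interaction contrast for 15 results. From 24 to 48 h it was lower for Lbr (-0.578 on the log2 scale). From 24 to 96 h it was lower for Lbr (-0.500) and Abcg1 (-0.553). In the same contrast it was higher for Hmgcs1 (0.711), Sqle (0.431), Cyp51 (0.634), Tm7sf2 (0.426), Msmo1 (0.550), Nsdhl (0.365), Hsd17b7 (0.486), Srebf2 (0.422), Insig1 (0.748), Stard4 (0.411), Acly (0.296) and Scd2 (0.336).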

How the results depend on the processing

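At 24 h 18 to 24 of the 35 genes were called under the alternatives, against 24, and 16 to 22 fell, against 22. Of the 15546 to 29076 genes tested, the alternatives called 2506 to 3655 lower, against 3296, and 2883 to 3775 higher, against 3469. At 48 h limma called 20 genes, with 2 higher, and a fit of the 48 h libraries alone called 5, with 5 lower and 0 higher. Of all genes, limma called 1740 of 17468 higher and 2235 lower, against 844 and 1132 in the main fit. The 48 h libraries alone called 371 of 16591 higher and 574 lower. Leaving out 1 library gave 9 to 12 called at 48 h, 8 to 11 lower and 0 to 1 higher. Of 17629 to 17738 genes tested, these fits called 672 to 1373 lower and 438 to 1369 higher. At 96 h median-of-ratios scaling, the authors' size factors and DESeq2 called 1 gene, higher. There limma called 3, 1 lower and 2 higher, and the 96 h libraries alone called 1, lower. Of 16819 to 17468 genes tested, these settings called 189 to 560 higher and 463 to 1001 lower, against 176 and 528. Leaving out 1 library gave 0 to 2 called at 96 h, 0 to 1 lower and 0 to 1 higher. Of 17621 to 17729 genes tested, these fits called 290 to 530 lower and 63 to 156 higher. For the change of effect from 24 to 48 h, DESeq2 called 2, limma 3, and leaving out 1 library 1 to 3. From 24 to 96 h no filter on low counts left 8 called, and leaving out 1 library 9 to 17. From 48 to 96 h DESeq2 called 1, limma 2, and leaving out 1 library 0 to 1. Between saline at 48 and 24 h limma called 1. No called value changed sign; an uncalled value within 1 SE of 0 was taken as having no direction. Depth limits Idi1 most, at 1.22 to 3.45 CPM.

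With the replicate block, 21 genes were called at 24 h and 10 at 48 h, with 0 higher, and 8 changed effect from 24 to 96 h, against 24, 13 and 14. Of all 17468 genes, the block called 2894 higher and 2731 lower at 24 h, and 294 and 639 at 48 h. Same-numbered saline and DT libraries share only a number: their deviations correlated at -0.356 to 0.13, and at no time did a library correlate best with its own number.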

Other observations

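Fatty acid oxidation genes, the opposite branch of lipid metabolism, were called in both directions at 24 h. Of 18, 4 rose and 4 fell (edgeR; median log2 fold change 0.127), near the 19.9% and 18.9% of all genes tested. The dehydrogenase Acadm fell at 24 h (-0.30 ± 0.06, adjusted p = 0.000203, edgeR), whereas its relative Acadl (0.36 ± 0.07, 0.000346) and the trifunctional subunit Hadha (0.33 ± 0.06, 0.000264) rose. None of these 3 genes was called by edgeR at 48 h (adjusted p = 0.0853 for Acadm, 0.810 for Acadl and 0.0665 for Hadha) or at 96 h (0.677, 0.776 and 0.760). Over the 18 genes the log2 fold changes ran from -1.66 to 0.727 at 24 h and from -0.922 to 0.386 at 48 h. At 48 h 1 of the 18 fell and 0 rose (edgeR), where 6.48% and 4.83% of all genes did. At 96 h none of the 18 was called.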
